A study of Mus musculus with 55 samples.

Results

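Neurotrophin signalling was followed through 8 genes in the ventral dentate gyrus of mice that differed in housing and in their response to social stress. The genes were Bdnf, Ntrk2, Ntf3, Ntrk3, Ngfr, Sort1, Sorcs2 and Vgf. They were chosen by name, 8 of the 45318 genes in the count tables, and all 8 passed the filter on low counts that left 18283 genes for testing. Total RNA of tissue punches was sequenced from 54 male C57BL/6J mice, with 1 library per mouse, except that 1 mouse was sequenced in 2 runs that were summed. Mice lived in standard housing (SH) or in an enriched environment (EE), that is, in larger groups with tunnels, objects and running wheels. Within each housing condition some mice were left unstressed (control), and the rest went through chronic social defeat stress (CSDS), in which a larger aggressor mouse attacks the test mouse on repeated days. Defeated mice were classed as resilient (RES) or susceptible (SUS) from the time they later spent near an unfamiliar aggressor, so RES and SUS are classes of behaviour and not treatments. The groups held 10 SH control, 7 SH RES, 10 SH SUS, 9 EE control, 9 EE RES and 9 EE SUS mice. No gene was deleted or introduced in any group, and EE mice differed from SH mice in group size and exercise as well as in objects, so these parts of enrichment cannot be told apart.

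Brain-derived neurotrophic factor (BDNF) and neurotrophin-3 are small secreted proteins that neurons release to support survival, dendrite growth and synaptic strength. Each is made as a proprotein: the mature form binds a receptor tyrosine kinase (TrkB for BDNF, TrkC for neurotrophin-3), while the proform binds the p75 receptor together with a co-receptor of the sortilin family, and these routes have different and often opposite effects on the synapse. In the dentate gyrus granule cells are a main source of BDNF, which they make on activity and carry in their mossy fibre axons, and exercise, enrichment and stress are classic settings in which Bdnf transcription has been studied. VGF is a secreted granule peptide precursor whose gene is a well known target of BDNF. The gene-level counts used here add all transcripts of a gene, so the promoters of Bdnf, and the full-length and truncated receptors made from Ntrk2 and Ntrk3, cannot be told apart.

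One sequence is shown because it carries the letters that make Bdnf a gene of interest in an activity study. Bdnf has many alternative first exons, each with its own promoter, and the promoter table of RefSeq (GRCm38.p6) held 7 start sites for it. The 250 bases upstream of each site were searched on both strands for the core of the cAMP response element, TGACGT, whose reverse complement is ACGTCA. It was found in 1 of the 7 Bdnf windows and in none of the 4 windows of the other members in the table, which were Ntrk2 (1 window), Ntf3 (2 windows) and Ngfr (1 window). Over all 32851 promoters in the table, 7.51% held the core in the same 250 bases, so a match is common. The window with the match lies on the plus strand at chr2:109692186-109692435, upstream of the start site at position 109692436, within the Bdnf locus but outside its annotated exons. Capitals mark the core, whose first base lies 36 bases before the start site.

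Bdnf upstream window: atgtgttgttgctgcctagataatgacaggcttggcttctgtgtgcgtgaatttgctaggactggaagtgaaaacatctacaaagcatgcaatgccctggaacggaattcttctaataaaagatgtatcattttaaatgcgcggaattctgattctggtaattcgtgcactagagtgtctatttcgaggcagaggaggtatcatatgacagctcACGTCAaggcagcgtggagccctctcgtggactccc

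The match describes letters in this window and not a bound site. The longer palindrome TGACGTCA, held by 1.79% of all promoters, was in 0 of the 11 windows. The E-box CACGTG, held by 7.15% of all promoters, was in 1 of them, a window of Ntf3. Promoter windows for Ntrk3, Sort1, Sorcs2 and Vgf were not used here.

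Sequencing depth was similar across mice. The total count per mouse ran from 16760009 to 24426804, apart from the mouse sequenced in 2 runs, which reached 45872357. Markers of dentate granule cells, the neurons that give the region its name, were detected in every group, with a summed level of 414.5 to 909.4 CPM (counts scaled to library size, per 1000000) per mouse. Markers of hilar mossy cells, CA1 and CA3 pyramidal cells, glia, vessels, choroid plexus and thalamus were detected as well, so each punch was a mixture. The summed choroid plexus markers varied 56.2-fold between mice and the granule cell markers 2.19-fold. In bulk tissue fewer cells of a type and less RNA per cell cannot be told apart. Replicate mice within a group were treated as independent animals.

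Compared per kilobase of exon, Sort1 had the highest level of the 8 genes. Its level in CPM per kilobase was 8.24 times that of Bdnf, followed by Ntrk2 at 2.25 times and Vgf at 1.29 times. Sorcs2 stood at 0.859 times the Bdnf level, Ntf3 at 0.695 times and Ntrk3 at 0.381 times. Ngfr was close to the limit of detection, at 0.0319 times the Bdnf level and with only 10 to 60 counts per mouse, whereas every mouse had at least 993 counts for Bdnf. This order depends on the exon length used, which was 30170 bases for Ntrk3, 6217 for Bdnf and 1714 for Ntf3. In CPM not divided by length, Ntrk3 (mean 120.4 over all 54 mice) and Sorcs2 (79.18) lay above Bdnf (65.11). Vgf (40.15) and Ntf3 (12.48) lay below Bdnf on that scale. The spread between mice was smallest for Ntrk2, with a coefficient of variation of 6.16% over all 54 mice, and largest for Ngfr (29.6%), Vgf (20.6%) and Ntf3 (19.4%).

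**Figure D1:**
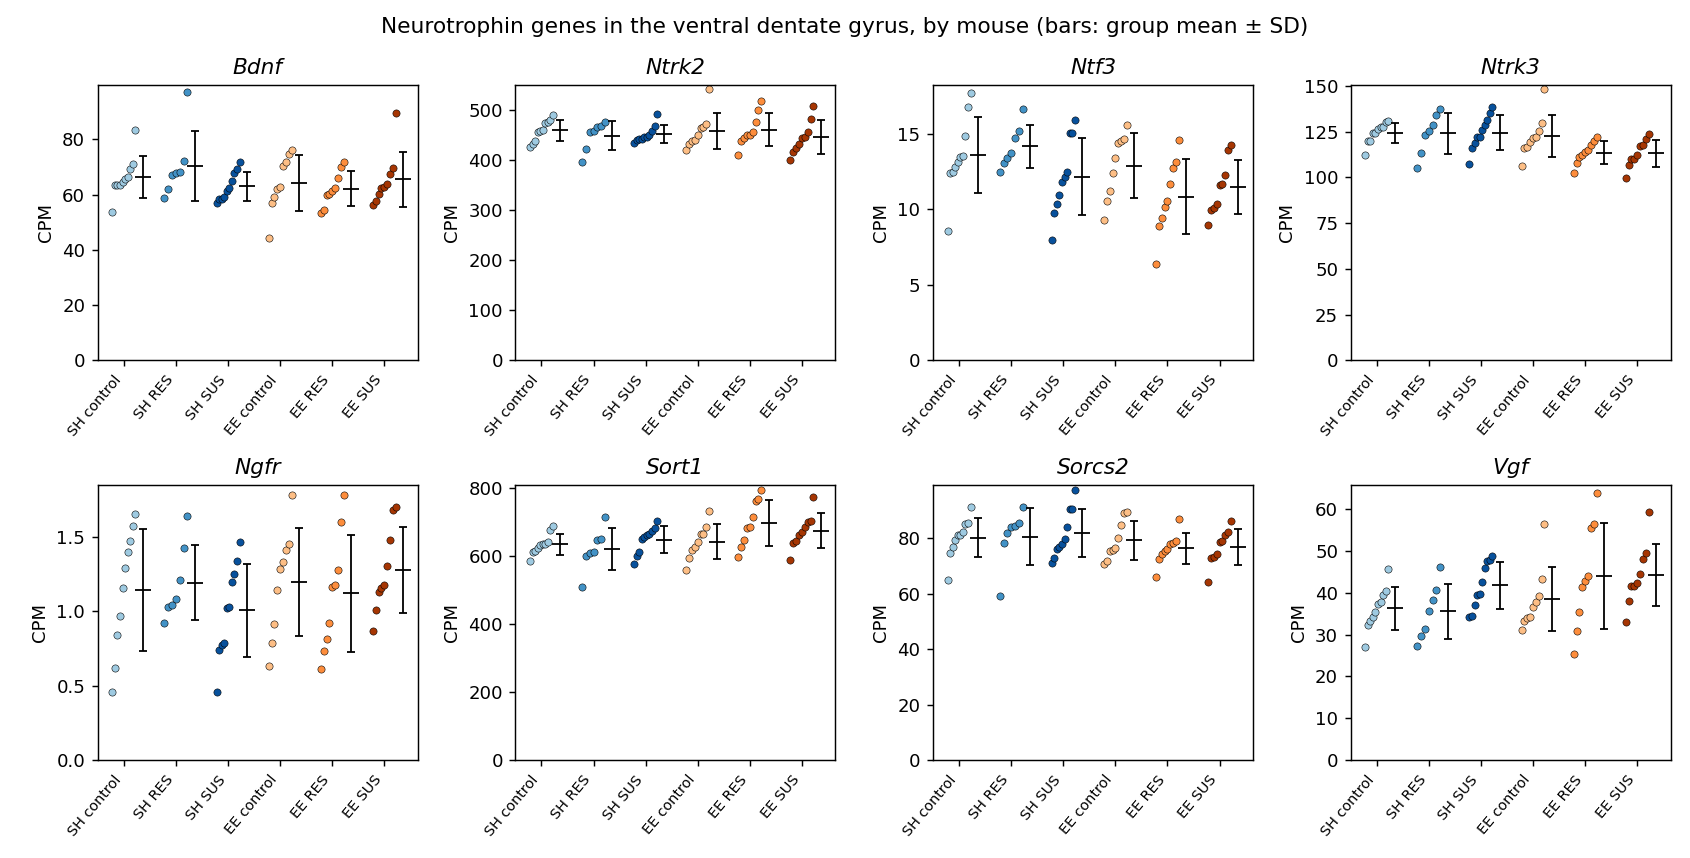
Level in CPM (vertical axis, starting at 0) of each of the 8 genes in each of the 54 mice, by housing and phenotype group (horizontal axis). Each point is 1 mouse, drawn from lowest to highest within its group, and each bar gives the group mean ± SD. All groups overlap for all 8 genes, EE RES and EE SUS sit low for Ntrk3 (means 113.6 and 113.1 CPM), and single mice stand apart for Bdnf in SH RES (97.08 CPM) and EE SUS (89.47 CPM).

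No member was called in any of the 15 comparisons made, at an adjusted p under 0.05 in the quasi-likelihood test of edgeR, with p adjusted by Benjamini-Hochberg over all 18283 genes. limma-voom also called none in any comparison, and DESeq2 called 1, named below. All 72 pairs of a gene and a comparison between 2 groups overlapped in their values. The matching share over all genes tested is not given here, so that count only describes these values. Comparisons that use the same control, RES or SUS group share those mice, so their results are not independent of each other.

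The first question was whether defeat, or the class of response to it, went with a different level of these genes. Comparing all 35 defeated with all 19 unstressed mice over both housings, 0 of 8 members were called, against 0.0438% of all genes tested, and 0 of 8 had an unadjusted p under 0.05, against 4.81% of all genes. DESeq2 and limma-voom also called none at either level. In SH the count called was 0 of 8 in each comparison, against 0.0328% of genes for SUS with control and 0% both for RES with control and for SUS with RES. The unadjusted count was also 0 in these 3 comparisons, where 2.78%, 3.51% and 4.88% of all genes passed. In EE 0 of 8 were called in each comparison, as for all genes (0%). At an unadjusted p under 0.05 there were 3 members for RES with control against 7.91% of genes, 1 for SUS with control against 7.9%, and 0 for SUS with RES against 3.52%. Taking both housings together, SUS with RES gave 0 members called and 0 unadjusted, against 0% and 3.67% of genes.

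Bdnf itself (ENSMUSG00000048482, chr2:109674700-109727007, plus strand of GRCm38), the ligand of TrkB, had overlapping levels in all 6 groups. The mean was 66.4 ± 7.58 CPM (SD, n = 10) in SH control mice, with a lowest, median and highest value of 53.5, 65.0 and 83.5. In SH RES mice it was 70.4 ± 12.6 CPM (n = 7; 58.7, 67.8 and 97.1), and in SH SUS mice 63.1 ± 5.19 CPM (n = 10; 56.8, 61.9 and 71.8). These 3 groups covered much the same range, apart from 1 SH RES mouse that lay far above the next highest at 72.1. In EE control mice the mean was 64.2 ± 10.2 CPM (n = 9; 44.2, 62.9 and 76.0). In EE RES mice it was 62.2 ± 6.26 CPM (n = 9; 53.4, 61.3 and 71.7), and in EE SUS mice 65.5 ± 9.93 CPM (n = 9; 56.2, 62.6 and 89.5). Again the groups overlapped throughout, and again 1 mouse, in EE SUS, lay far above the next at 69.7. The highest group mean was 1.13 times the lowest.

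Between defeated and unstressed mice the fitted log2 difference of Bdnf was -0.0014 with an SE of 0.051 and a 95% interval from -0.10 to 0.10 (edgeR p = 0.978, adjusted p = 0.999). Expressed as a percentage, that interval ran from -6.94% to 7.24%, so larger differences of the whole-gene level lay outside it. Within SH, Bdnf was lower in SUS than in RES mice by a fitted log2 difference of -0.16 (SE 0.0876, edgeR p = 0.0736, adjusted p = 0.934). That difference rested in part on the 1 high SH RES mouse: with that mouse and 2 others far from their groups left out, a choice made after seeing the data, it was -0.07 (p = 0.398). The difference between SUS and RES mice was not shown to depend on housing for any member. For Bdnf the interaction was 0.24 (SE 0.122, edgeR p = 0.0577, adjusted p = 0.977), and 0.07 (p = 0.488) without those 3 mice.

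The neurotrophin-3 gene Ntf3 (ENSMUSG00000049107, chr6:126101412-126166910, minus strand) was the most variable ligand. It averaged 13.6 ± 2.52 CPM in SH control (lowest 8.58, median 13.3, highest 17.7), 14.2 ± 1.42 in SH RES (12.51, 13.8 and 16.6) and 12.2 ± 2.57 in SH SUS mice (7.996, 11.98 and 15.96). In EE it averaged 12.9 ± 2.15 in control (9.31, 13.4 and 15.6), 10.8 ± 2.50 in RES (6.40, 10.5 and 14.6) and 11.5 ± 1.80 in SUS mice (8.996, 11.6 and 14.3). EE RES was the lowest of the 6 groups and SH RES the highest, a ratio of 1.31 between group means, and 6 of the 9 EE RES mice lay below every SH RES mouse. Between defeated and unstressed mice the log2 difference of Ntf3 was -0.12 (SE 0.0734, edgeR p = 0.096).

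Ntrk3 (ENSMUSG00000059146, chr7:78175959-78738012, minus strand), which encodes the neurotrophin-3 receptor TrkC, was level across the SH groups and lower in the defeated EE groups. The SH means were 124.3 ± 5.58 CPM in control (lowest 112.5, median 125.5, highest 131.0), 124.0 ± 11.5 in RES (105.0, 125.4 and 137.6) and 124.5 ± 9.38 in SUS mice (107.4, 123.8 and 138.3). The EE means were 122.8 ± 11.6 CPM in control (106.0, 121.3 and 148.1), 113.6 ± 6.06 in RES (102.6, 114.0 and 121.9) and 113.1 ± 7.59 in SUS mice (99.5, 112.2 and 123.8). In each of the 2 defeated EE groups, 8 of 9 mice lay below the EE control median, while the ranges still overlapped.

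Within EE the log2 difference of Ntrk3 from control was -0.12 for SUS (SE 0.0483, edgeR p = 0.0185, adjusted p = 0.545) and -0.11 for RES (SE 0.0482, p = 0.0252, adjusted p = 0.61). Both use the same 9 EE control mice. Markers of other cells also differed in the same comparisons, though none had an adjusted p under 0.05 in edgeR. For EE SUS with control, 8 of 8 thalamus markers were higher at an unadjusted p under 0.05 (list median 1.19 on the log2 scale, Prkcd 1.67 and Tnnt1 1.89), as were 3 of 7 CA3 markers (list median 0.19, Bok 0.37). For EE RES with control, 4 of 8 thalamus markers (list median 0.58) and 3 of 7 CA3 markers (list median 0.24, Bok 0.33) were higher at that level, and 2 of 6 granule cell markers were lower (list median -0.21, Prox1 -0.28 and Tdo2 -0.27). The astrocyte markers Gja1 (-0.15) and Slc1a3 (-0.14) were also lower at that level. For EE SUS with control, single markers of other lists passed too, among them Slc1a3 (-0.14) and Vip (-0.31) lower and Rgs5 (0.18) higher. The summed thalamus markers ran from 157.2 to 313.7 CPM in EE control, 129.8 to 788.0 in EE RES and 193.2 to 694.3 in EE SUS mice, and none was at 0. The summed CA3 markers ran from 301.3 to 428.8 CPM in EE control, 335.5 to 531.3 in EE RES and 379.4 to 480.1 in EE SUS mice. With granule cell and oligodendrocyte scores as covariates, chosen after seeing the data, Ntrk3 stood at -0.08 for SUS (SE 0.0398, p = 0.0411) and -0.06 for RES (SE 0.0412, p = 0.179). Fits with CA1 and CA3 scores, or with choroid plexus and thalamus scores, as covariates also called 0 of 8 members in these 2 comparisons. The Ntrk3 differences under those 2 fits are not given here. Without covariates, the matching Ntrk3 differences from control in SH were 0.00 for SUS (SE 0.0457, p = 0.962) and 0.00 for RES (SE 0.0504, p = 0.934). The test of whether defeat differed in effect between the housings gave -0.11 for Ntrk3 (SE 0.0585, edgeR p = 0.0584, adjusted p = 0.756). For that interaction 0 of 8 members were called, against 0% of genes, and 0 of 8 at an unadjusted p under 0.05, against 6.47%. The interaction of housing with SUS against RES likewise gave 0 of 8 at both levels, against 0% and 4.84% of genes.

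Of the other receptors, Ntrk2 (ENSMUSG00000055254, chr13:58806569-59133970, plus strand), encoding TrkB, was the most even gene of the 8. Its group means lay between 445.6 ± 33.6 CPM in EE SUS and 460.3 ± 32.9 CPM in EE RES mice, a ratio of 1.03, and single mice ran from 396.5 to 542.8 CPM. Ngfr (ENSMUSG00000000120, chr11:95568818-95587735, minus strand), which encodes the p75 receptor and in the adult forebrain is best known from cholinergic neurons whose bodies lie outside the hippocampus, averaged between 1.01 ± 0.315 CPM in SH SUS and 1.28 ± 0.289 CPM in EE SUS mice. At its counts of 10 to 60 per mouse, the 95% interval for defeated against unstressed mice was wide, as the plot of fitted differences shows.

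Sort1 (ENSMUSG00000068747, chr3:108284082-108361511, plus strand) encodes sortilin, which sorts BDNF in the secretory pathway and binds proneurotrophins beside p75. Its locus overlaps Gm43099 on the same strand, where reads of the shared part were not counted for either gene. Sort1 averaged 633.6 ± 29.8 CPM in SH control (lowest 584.2, median 632.7, highest 687.7), 620.0 ± 62.3 in SH RES (508.8, 612.1 and 713.4) and 647.2 ± 39.8 in SH SUS mice (575.7, 658.6 and 702.6). In EE it averaged 641.8 ± 51.3 in control (557.3, 641.9 and 731.3), 696.9 ± 68.1 in RES (597.3, 683.9 and 794.6) and 673.2 ± 51.3 in SUS mice (587.2, 670.9 and 771.5). The highest values were in defeated EE mice, and 4 of 9 EE RES mice lay above every SH RES mouse. EE RES differed from EE control by a log2 difference of 0.12 (SE 0.0519, edgeR p = 0.026, adjusted p = 0.61). Ntf3 was the third member with an unadjusted p under 0.05 in that comparison, at -0.25 (SE 0.122, p = 0.0491, adjusted p = 0.63), next to Ntrk3.

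Sorcs2 (ENSMUSG00000029093, chr5:36017180-36398139, minus strand), a relative of sortilin that also acts as a proneurotrophin co-receptor, lay between 76.3 ± 5.59 CPM in EE RES and 81.7 ± 8.65 CPM in SH SUS mice. Its lowest single value, 59.2 CPM, came from the same SH RES mouse that had the highest Bdnf.

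Vgf (ENSMUSG00000037428, chr5:137026392-137033351, plus strand) was higher in most defeated groups than in the control groups without passing the test. It averaged 36.3 ± 5.12 CPM in SH control (lowest 27.0, median 36.3, highest 45.8), 35.6 ± 6.62 in SH RES (27.3, 35.7 and 46.0) and 41.8 ± 5.58 in SH SUS mice (34.3, 41.1 and 48.8). In EE it averaged 38.4 ± 7.67 in control (31.0, 36.6 and 56.3), 43.9 ± 12.7 in RES (25.3, 42.7 and 63.9) and 44.2 ± 7.48 in SUS mice (33.1, 42.3 and 59.2). Of the 35 defeated mice, 25 lay above the median of the unstressed mice. The log2 difference of Vgf between them was 0.14 (SE 0.0752, edgeR p = 0.0639, adjusted p = 0.987), and without the 3 mice left out above for Bdnf it was 0.20 (SE 0.075, p = 0.0106, adjusted p = 0.897). One of these, EE control mouse 2, was picked in part for its high Vgf (56.34 CPM against 43.38 for the next mouse). Leaving out a high unstressed mouse raises this difference, so the second value is no independent check.

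The second question was whether enrichment went with a different level of the same genes. Comparing all 27 EE with all 27 SH mice, 0 of 8 members were called by edgeR, against 2.42% of all genes tested. At an unadjusted p under 0.05 there were 4 of 8 (Ntf3, Ntrk3, Sort1 and Vgf), against 17.6% of all genes. Ntf3 and Ntrk3 had the sign of a lower level in EE, and Sort1 and Vgf that of a higher level. limma-voom called 0 members, with 3 at an unadjusted p under 0.05, and DESeq2 called 1, Ntrk3, with 4 at an unadjusted p under 0.05.

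Ntrk3 came closest to the threshold. It averaged 116.5 ± 9.52 CPM in EE mice (lowest 99.5, median 116.7, highest 148.1) and 124.3 ± 8.46 CPM in SH mice (105.0, 125.4 and 138.3). Of the 27 EE mice, 24 lay below the SH median, while the ranges overlapped. The log2 difference was -0.09 (SE 0.0281, 95% interval -0.15 to -0.04, edgeR p = 0.00139, adjusted p = 0.0523). Its side of the threshold turned on the method: the adjusted p was 0.0302 in DESeq2, 0.0158 in limma with quality weights and 0.0152 in edgeR without the 3 mice, while the difference kept its sign. The last of these was chosen after seeing the data. Plain limma-voom did not call Ntrk3, nor did edgeR with granule cell and oligodendrocyte scores as covariates.

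Ntf3 averaged 11.7 ± 2.27 CPM in EE and 13.2 ± 2.38 CPM in SH mice, with 18 of 27 EE mice below the SH median. Its log2 difference was -0.18 (SE 0.0707, edgeR p = 0.0135, adjusted p = 0.154). Sort1 averaged 670.7 ± 59.8 CPM in EE and 635.1 ± 43.3 CPM in SH mice, with 20 of 27 EE mice above the SH median. Its log2 difference was 0.08 (SE 0.0302, edgeR p = 0.00929, adjusted p = 0.131). Vgf averaged 42.2 ± 9.61 CPM in EE and 38.1 ± 6.17 CPM in SH mice, with 18 of 27 EE mice above the SH median and a log2 difference of 0.16 (SE 0.0717, edgeR p = 0.0343, adjusted p = 0.235). For these 3 genes too the EE and SH ranges overlapped.

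Bdnf averaged 64.0 ± 8.74 CPM in EE and 66.2 ± 8.61 CPM in SH mice, a log2 difference of -0.06 (SE 0.0489, 95% interval -0.15 to 0.04, edgeR p = 0.251, adjusted p = 0.586). Its receptor gene Ntrk2 differed by 0.00 on the log2 scale (SE 0.0248, edgeR p = 0.891). Sorcs2 differed by -0.06 (SE 0.0369, p = 0.104, adjusted p = 0.4) and Ngfr by 0.11 (SE 0.12, p = 0.37). Sorcs2 was lower in 21 of 27 EE mice than the SH median, and without the 3 mice its difference was -0.10 (p = 0.00706, adjusted p = 0.107). One of these, SH RES mouse 5, was picked in part for its low Sorcs2, and leaving out a low SH mouse moves this difference down.

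**Figure D2:**
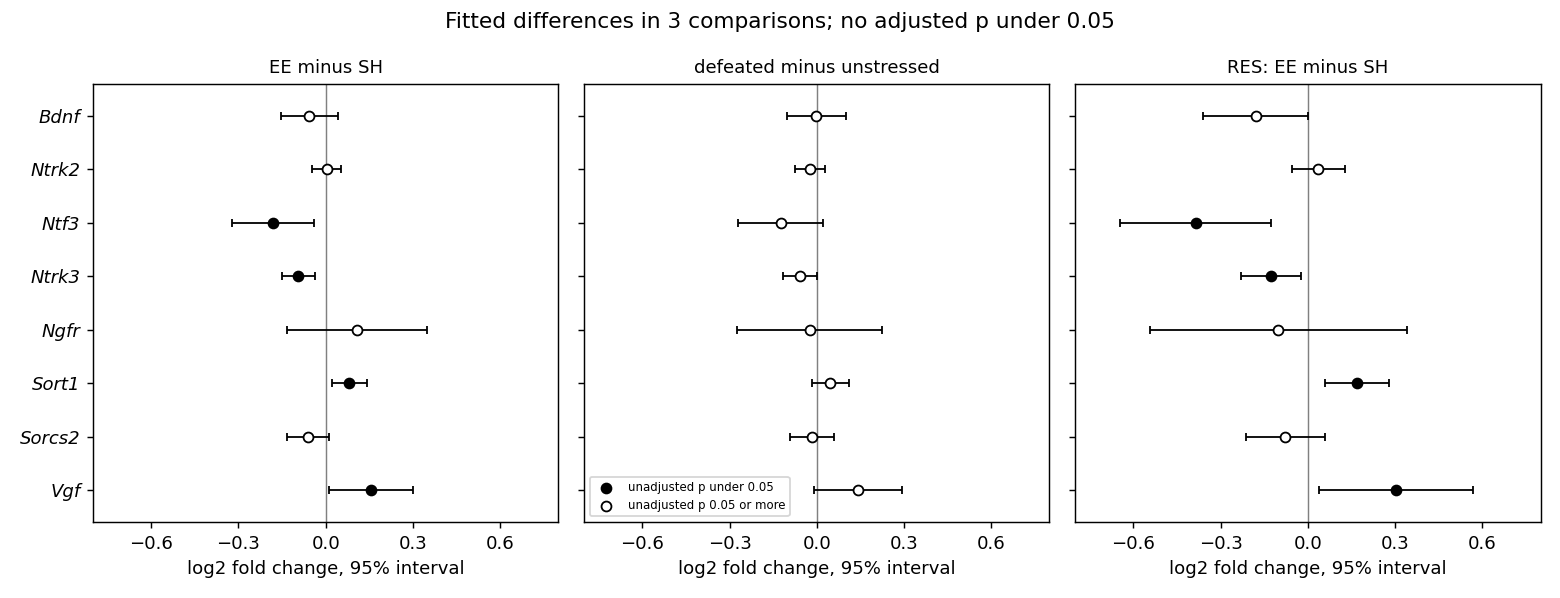
Fitted log2 fold changes of the 8 genes with 95% intervals (horizontal axis) for EE minus SH, defeated minus unstressed, and EE minus SH among RES mice, from edgeR over all 54 mice. Filled points have an unadjusted p under 0.05 and open points do not, and no point has an adjusted p under 0.05. Bdnf lies within 0.06 of 0 in the first and second panels and at -0.18 in the third, and the widest intervals belong to Ngfr.

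By phenotype, the housing comparison gave 0 of 8 members called in each class. For control mice the background was 0.00547% of genes, with 0 of 8 at an unadjusted p under 0.05 against 5.02%. For SUS mice it was also 0.00547%, with 1 of 8 (Ntrk3) against 7.36%. For RES mice it was 0.273%, with 4 of 8 (Ntf3, Ntrk3, Sort1 and Vgf) against 16%. limma-voom gave 4 and DESeq2 5 at an unadjusted p in RES mice, and each gave 0 called. An effect of housing in one class and not in another was not shown to differ between classes, since no member passed an interaction test.

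Among RES mice the largest fitted difference was that of Ntf3, -0.39 on the log2 scale (SE 0.13, 95% interval -0.65 to -0.13, edgeR p = 0.00439, adjusted p = 0.128), with 8 of 9 EE RES mice below the SH RES median. Ntf3 was the only member to meet the study's own criterion of an unadjusted limma p under 0.05 with a fold over 1.3, which 3.24% of all genes met in this comparison. Sort1 differed by 0.17 (SE 0.0557, p = 0.00371, adjusted p = 0.12), with 8 of 9 EE RES mice above the SH RES median. Ntrk3 differed by -0.13 (SE 0.0515, p = 0.0178, adjusted p = 0.203), with 9 of 9 below that median. Vgf differed by 0.30 (SE 0.133, p = 0.0261, adjusted p = 0.236). Bdnf differed by -0.18 (SE 0.0897, p = 0.0503, adjusted p = 0.312), or -11.7%, its largest difference between 2 groups, with 7 of 9 EE RES mice below the SH RES median. Without the 3 mice, among them the SH RES mouse with the highest Bdnf, it was -0.09 (p = 0.265). Among SUS mice Ntrk3 differed by -0.14 (SE 0.0471, edgeR p = 0.00479, adjusted p = 0.493), and again 9 of 9 EE mice lay below the SH median. Over all 6 groups at once, edgeR's test for any difference called 0 members, against 0.35% of genes, and 3 had an unadjusted p under 0.05 (Ntf3, Ntrk3 and Sort1), against 11.1%.

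Cell type markers moved with housing beside these results. Of 6 granule cell markers, 2 were lower in EE at an adjusted p under 0.05, Tdo2 at -0.28 and Dsp at -0.30 on the log2 scale, and the list median was -0.15. Of 6 oligodendrocyte markers, 2 were higher, among them Mbp at 0.25, with a list median of 0.26. Of 7 endothelial and mural cell markers, 1 was higher, Flt1 at 0.23 (edgeR adjusted p = 0.0186), and 5 had an unadjusted p under 0.05 (list median 0.12). Among RES mice 4 of 7 CA3 markers were higher in EE at an unadjusted p under 0.05 (Bok, Homer3, Grik4 and Nectin3, list median 0.27), with 0 at an adjusted p under 0.05. The summed granule cell markers ranged from 660.5 to 824.3 CPM in SH RES and from 444.7 to 704.4 CPM in EE RES mice. The summed oligodendrocyte markers ranged from 987.4 to 1270 CPM in SH RES and from 1182 to 1910 CPM in EE RES mice. No marker of either list was at 0.

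With granule cell and oligodendrocyte scores as covariates, an alternative chosen after seeing these markers, the EE difference of Ntf3 was -0.05 (SE 0.0549, p = 0.328). That of Ntrk3 was -0.05 (SE 0.0245, p = 0.0492, adjusted p = 0.412), and that of Vgf was 0.12 (SE 0.0726, p = 0.108). Sort1 stood at 0.08 (SE 0.0325, p = 0.0243). With group means removed, Sort1 was little related to either score (r = -0.13 and 0.05), so this fit could change its difference little. The scores that Sort1 did go with, astrocyte (r = -0.55), microglia (-0.50) and CA1 (0.38), were not in this fit. Among RES mice Ntf3 stood at -0.14 (SE 0.099, p = 0.155) and Sort1 at 0.15 (SE 0.0595, p = 0.0139) under the same fit.

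The members were then compared with 13 marker scores across the 54 mice, with group means removed. Of 104 relations, 32 had an adjusted permutation p under 0.05, 13 positive and 19 negative, with 100000 permutations within groups and Benjamini-Hochberg adjustment over the 104. Ntf3 and Ntrk3 went with granule cell markers. Between Ntf3 and the granule cell score Pearson's r was 0.73 and Spearman's rho 0.66 (permutation p = 1e-05, the smallest they can give, adjusted p = 0.00052), with r = 0.68 without the 2 mice farthest from the median. Between Ntrk3 and that score r was 0.62 and rho 0.53 (permutation p = 2e-05, adjusted p = 0.000693, r = 0.52 without 2 mice). Ntf3 was lower where CA3 pyramidal cell markers were higher, with r = -0.71 and rho = -0.67 (permutation p = 1e-05, adjusted p = 0.00052, r = -0.63 without 2 mice).

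Bdnf followed the granule cell score less closely, with r = 0.43 and rho = 0.31 (permutation p = 0.00228, adjusted p = 0.0108, r = 0.29 without 2 mice). It was lower where endothelial and mural cell markers were higher, with r = -0.46 and rho = -0.44 (permutation p = 0.00055, adjusted p = 0.00318, r = -0.44 without 2 mice). Sorcs2 went with the score of mossy cells, the excitatory neurons of the hilus, with r = 0.53 and rho = 0.54 (permutation p = 5e-05, adjusted p = 0.000867, r = 0.47 without 2 mice). Sort1 was lower where astrocyte markers were higher, with r = -0.55 and rho = -0.57 (permutation p = 4e-05, adjusted p = 0.000867, r = -0.56 without 2 mice). Ngfr had 0 relations that passed.

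**Figure D3:**
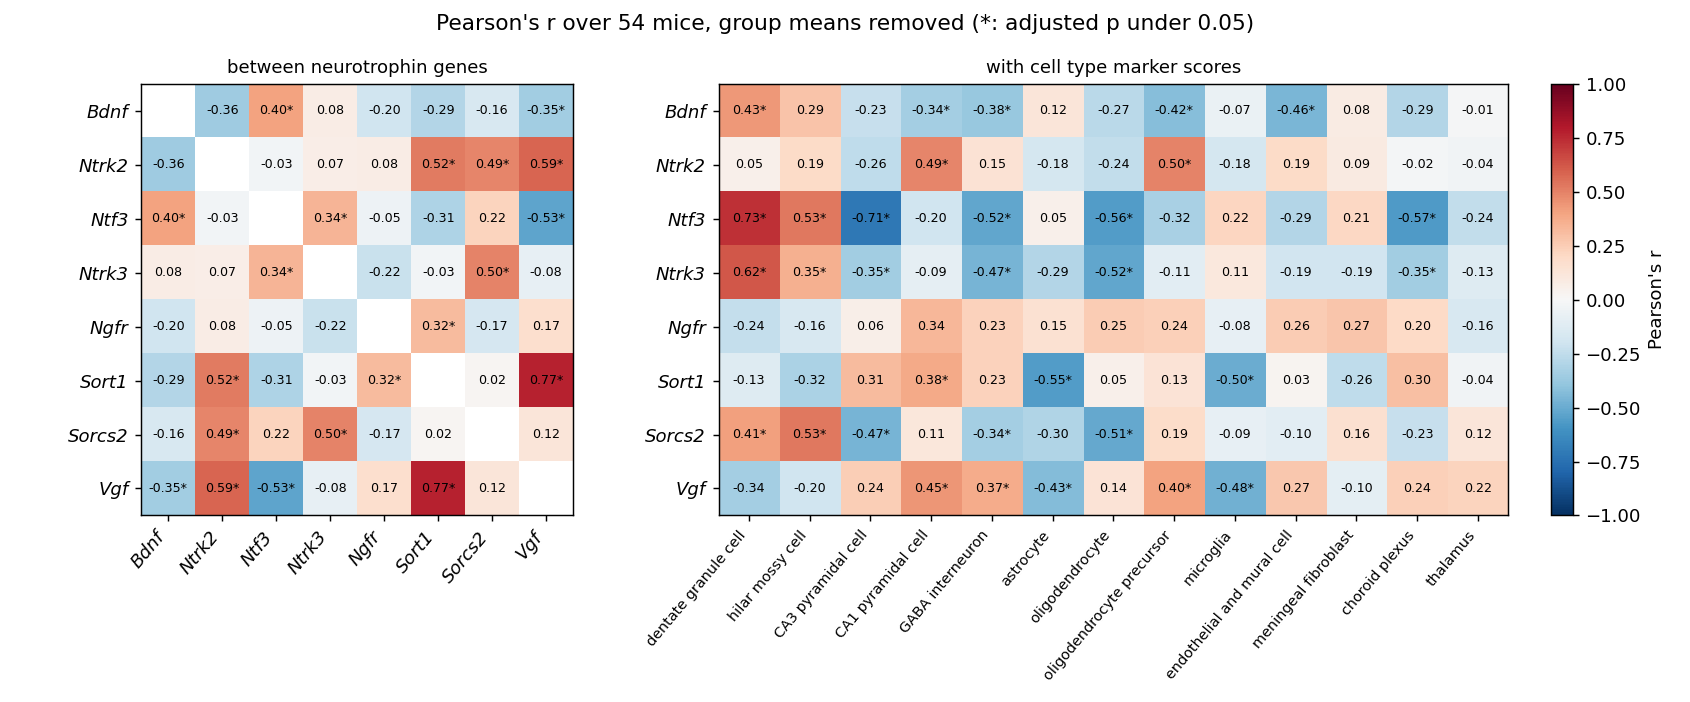
Pearson's r over 54 mice on log2 CPM with group means removed, between the 8 genes (left) and between each gene and 13 cell type marker scores (right). Colour runs from -1 (blue) to 1 (red), and a star marks an adjusted permutation p under 0.05. The strongest cells are Sort1 with Vgf (0.77) and Ntf3 with the granule cell score (0.73), while Bdnf with its receptor gene Ntrk2 stands at -0.36 with an adjusted p of 0.0515, just past the level for a star.

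Between the members themselves, 10 of 28 pairs had an adjusted permutation p under 0.05, 8 of them positive and 2 negative. The closest pair was Sort1 and Vgf, with r = 0.77 and rho = 0.73 (permutation p = 1e-05, the smallest they can give, adjusted p = 0.00028), r = 0.74 without 2 mice and a positive sign in 6 of 6 groups. The 5 mice with Vgf above 50 CPM, a level chosen after seeing the values, all lived in EE (1 control, 3 RES and 1 SUS), and their Sort1 ran from 731.3 to 794.6 CPM, against at most 715.3 CPM in the other 49 mice. In those 49 mice r was still 0.68.

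Ntrk2 varied with the same genes across mice. With Vgf its r was 0.59 and rho 0.49 (permutation p = 3e-05, adjusted p = 0.00042, r = 0.49 without 2 mice), and with Sort1 its r was 0.52 and rho 0.44 (permutation p = 0.00022, adjusted p = 0.00154, r = 0.42 without 2 mice). With Sorcs2 its r was 0.49 and rho 0.41 (permutation p = 0.0003, adjusted p = 0.00168, r = 0.43 without 2 mice). Ntf3 ran opposite to Vgf, with r = -0.53 and rho = -0.55 (permutation p = 0.00012, adjusted p = 0.00112, r = -0.46 without 2 mice).

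Bdnf and Ntf3, the ligand genes, varied together, with r = 0.40 and rho = 0.34 (permutation p = 0.00132, adjusted p = 0.00528, r = 0.43 without 2 mice). With granule cell and oligodendrocyte scores removed, that r was 0.15 (adjusted p = 0.453), while Sort1 with Vgf stood at 0.78. Sort1 was little related to these 2 scores (r = -0.13 and 0.05), so their removal could change that pair little. Sort1 and Vgf both went with astrocyte (r = -0.55 and -0.43), microglia (-0.50 and -0.48) and CA1 scores (0.38 and 0.45), which were not removed. With the granule cell and oligodendrocyte scores removed 6 of 28 pairs passed, of which 5 were among the 10 and 1, Bdnf with Ntrk2, was not. Between Bdnf and Ntrk2 r was -0.36 and rho -0.36 (permutation p = 0.0202, adjusted p = 0.0515, r = -0.33 without 2 mice). That pair passed by rank (adjusted p = 0.0377), with group means kept (r = -0.36, adjusted p = 0.0219) and with the scores removed (r = -0.42, adjusted p = 0.0282). By rank with group means kept, rho was weaker at -0.24. SH RES mouse 5 had both the highest Bdnf (97.08 CPM) and the lowest Ntrk2 (396.5 CPM) of the 54 mice. Between Bdnf and Vgf r was -0.35 and rho -0.37 (permutation p = 0.0121, adjusted p = 0.0377, r = -0.34 without 2 mice), and with the scores removed it was -0.23 (adjusted p = 0.257). The receptor gene Ntrk3 varied with Sorcs2 (r = 0.50, rho = 0.45, permutation p = 0.00045, adjusted p = 0.0021, r = 0.41 without 2 mice) and with its ligand gene Ntf3 (r = 0.34, rho = 0.29, permutation p = 0.0104, adjusted p = 0.0363, r = 0.38 without 2 mice). With the 2 marker scores removed these were 0.32 (adjusted p = 0.131) and -0.22 (adjusted p = 0.28).

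**Figure D4:**
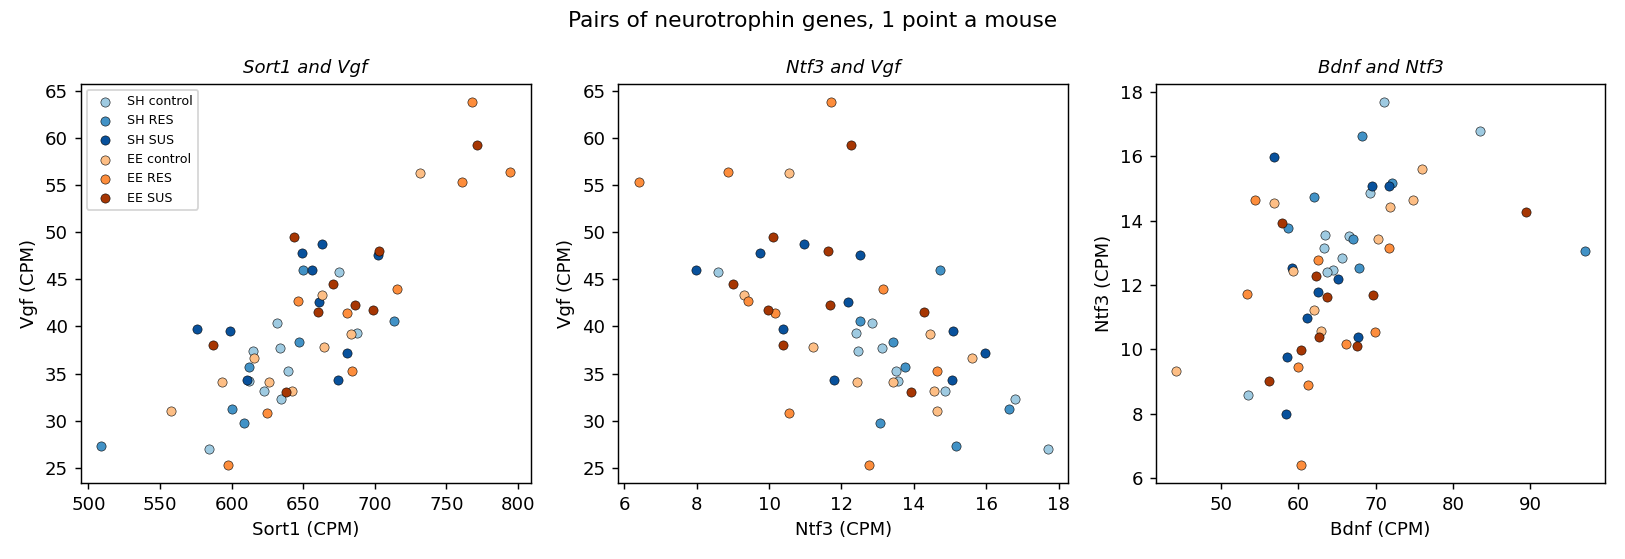
Levels in CPM of 3 pairs of genes, with 1 point per mouse coloured by its group: Vgf against Sort1, Vgf against Ntf3, and Ntf3 against Bdnf. The 5 mice with the highest Vgf are also the 5 with the highest Sort1, at 731.3 CPM or more, and all are EE mice. The Bdnf values of 97.08 and 89.47 CPM stand apart on the right of the last panel.

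Among all other genes tested, those like Bdnf across the 54 mice with group means removed included Kcna4 (r = 0.84), Rasa1 (0.79), Lrrcc1 (0.77) and Lmo7 (0.75). Kcna4 encodes a voltage-gated potassium channel. Sort1 was most like Mapk8ip3 (r = 0.94), Dync1h1 (0.91) and Pip4k2b (0.90), and Vgf most like Pi4ka, Pcnx2 (both 0.90) and Slc6a17 (0.89). Ntf3 was most like Mcm6 (r = 0.85), 1700086L19Rik and Tiam2 (both 0.83). Ntrk3 was most like Zbtb20 (r = 0.81), Ralgapa2 and Unc79 (both 0.79), and Ntrk2 most like Nrxn2 (0.82), Adcy5 (0.80) and Agap2 (0.78). Sorcs2 was most like Tenm1 (r = 0.79), Grid1 (0.73) and Grik3 (0.71). For Ngfr the closest genes reached only 0.51 for Rpsa-ps1, 0.49 for Tyro3 and 0.48 for Btc. These are the highest values among all genes tested, in mice that share tissue make-up and library effects, and they are given as a description.

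The rest of the pathway was described by 107 other genes in 8 lists, of which 104 passed the filter and were tested. In EE against SH, 3 of the 104 rose and none fell at an adjusted p under 0.05, against 2.42% of all genes, and the median log2 difference was -0.0037 over the 104 and 0.0043 over all genes. At an unadjusted p under 0.05 there were 21 of 104, 9 higher and 12 lower, against 17.6% of all genes. In each of the other 14 comparisons edgeR called 0 of 104.

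Pik3r1, the regulatory subunit of the phosphoinositide 3-kinase that Trk receptors recruit, rose in EE. Its mean was 112.5 ± 6.27 CPM in EE mice (lowest 100.1, median 112.7, highest 122.6) against 102.4 ± 10.3 CPM in SH mice (83.2, 102.1 and 145.2). The ranges overlapped, and the highest value was that of an SH mouse. The log2 difference was 0.13 (SE 0.0296, edgeR adjusted p = 0.0108).

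Shc1, an adaptor that docks on activated Trk receptors, averaged 9.41 ± 0.991 CPM in EE (7.65, 9.17 and 11.1) and 8.52 ± 0.726 CPM in SH mice (6.78, 8.48 and 9.46), a log2 difference of 0.15 (SE 0.0385, edgeR adjusted p = 0.0271). Fosb, a transcription factor gene induced by activity, averaged 1.74 ± 0.355 CPM in EE mice (0.917, 1.68 and 2.38). In SH mice it averaged 1.38 ± 0.281 CPM (0.921, 1.34 and 2.04), a log2 difference of 0.33 (SE 0.0819, edgeR adjusted p = 0.0209). These Fosb levels were low, near the 1.15 CPM that Ngfr averaged over all 54 mice. The EE and SH ranges overlapped for both Shc1 and Fosb. With granule cell and oligodendrocyte scores as covariates the adjusted p was 0.0678 for Fosb, at a difference of 0.33, and 0.245 for Shc1, at 0.10.

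**Figure D5:**
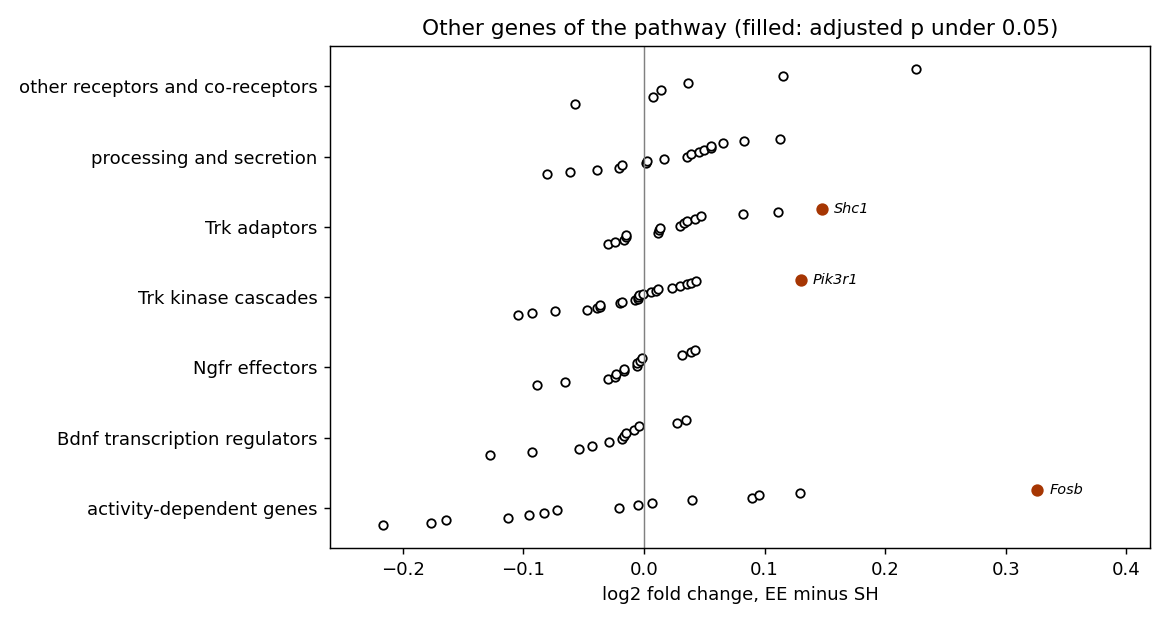
Log2 fold change of EE minus SH (horizontal axis) for other pathway genes tested, in 7 of the 8 lists (vertical axis), from edgeR over 54 mice. Each point is 1 gene, drawn from lowest to highest within its list, and filled points have an adjusted p under 0.05. Shc1 (0.15), Pik3r1 (0.13) and Fosb (0.33) are filled, and the rest of each list lies on both sides of 0.

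By role, of 6 other receptors and co-receptors 0 were called and 3 had an unadjusted p under 0.05, the smallest that of Sorcs1, a further sortilin relative, at 0.23 (p = 0.00167, adjusted p = 0.0577). Of 17 genes of proneurotrophin processing and secretion 0 were called and 1 passed unadjusted, of 14 effectors of the p75 receptor 0 and 2, and of 12 regulators of Bdnf transcription 0 and 2, among them Mef2c at -0.13 (p = 0.0155). Of 16 Trk adaptors 1 was called and 2 passed unadjusted, of 23 genes of the kinase cascades 1 and 7, and of 15 activity-dependent genes 1 and 3. Between defeated and unstressed mice 0 of 104 were called and 6 had an unadjusted p under 0.05, against 4.81% of genes. Of these the smallest p was that of Pcsk2, a prohormone convertase of secretory granules, at 0.11 (edgeR p = 0.00276, adjusted p = 0.685).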

How the data were processed

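The authors isolated RNA from ventral dentate gyrus punches, prepared stranded total RNA libraries, aligned reads with STAR to the mouse genome (mm10 per the labels) and deposited raw counts per gene and library for each strand. The reverse-strand counts were used, since 3.51% to 4.13% of stranded counts fell on the other strand. Rows for unmapped (13.9% to 19.9%), multimapping (8.70% to 12.1%), unassigned (19.9% to 28.8%) and ambiguous reads (0.836% to 1.12%) were left out. Gene coordinates came from a GRCm38 annotation. The members and lists were chosen with earlier results of these data known. All 54 mice entered 1 fit in edgeR 4.0.16 (R 4.3.3): TMM scaling, filterByExpr, quasi-likelihood F tests and Benjamini-Hochberg adjustment over 18283 genes, with calls at an adjusted p under 0.05. CPM are TMM-scaled counts per 1000000. Correlations used log2 CPM with a prior count of 2 and group means removed, and 100000 two-sided permutations. A marker score is the mean of its markers' standardized log2 CPM. Alternatives used limma 3.58.1 and DESeq2 1.42.0, and plots matplotlib 3.10.9. The fit was tested on simulated counts with changes larger than the member differences here. That test does not cover differences of the size seen for the members. Named outside the members were pathway genes at an adjusted p under 0.05, the 5 genes most like Bdnf and the 3 most like each other member, and some genes are not reported here. Sorcs1, Mef2c and Pcsk2 were named after their values were seen. The study states a smaller number of replicates for some defeated groups without naming mice, so every mouse was kept.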

Additional observations from a re-analysis of the deposited data

Results flagged for a closer look

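In 48 groups of values (8 genes in 6 groups), the gap of the highest or lowest mouse to its nearest neighbour, as a share of the group's range, passed Dixon's 95% critical value in 5, where chance flags about 1 in 20. SH RES mouse 5 had the highest Bdnf of its group, 97.08 CPM against 72.12 for the next mouse, and the lowest Sorcs2, 59.16 CPM against 78.14. EE SUS mouse 9 had the highest Bdnf of its group, 89.47 CPM against 69.66. EE control mouse 2 had the highest Ntrk2 of its group, 542.8 CPM against 472.1, and the highest Vgf, 56.34 CPM against 43.38. The cause was not tested. The mice were picked from these same values, so for the flagged genes the fits without them are no independent check. Without these 3 mice, the log2 difference between defeated and unstressed mice was -0.04 for Bdnf (edgeR p = 0.348), 0.00 for Ntrk2 (p = 0.943), 0.01 for Sorcs2 (p = 0.81) and 0.20 for Vgf (p = 0.0106, adjusted p = 0.897). In EE against SH it was -0.05 for Bdnf (p = 0.253), -0.02 for Ntrk2 (p = 0.358), -0.10 for Sorcs2 (p = 0.00706, adjusted p = 0.107) and 0.12 for Vgf (p = 0.113).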

How the results depend on the processing

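Of the 8 members, 0 were called in EE against SH, and 1 (Ntrk3) under DESeq2, limma with quality weights, edgeR with the replicate number as a block, and edgeR without the 3 mice named above. Leaving out each mouse in turn gave 0 to 1 called, with Ntrk3 called in 13 of 54 omissions (SH control 3 and 10, SH RES 4 and 5, SH SUS 1, 3 and 7, EE control 6 and 8, EE RES 2 and 9, EE SUS 7 and 9) and its log2 difference between -0.11 and -0.09. Among RES mice 1 member (Ntf3) met the study's criterion. For the pairing, the 126 pairs of mice with the same number in different groups had a mean correlation of 0.0304 (-0.2583 to 0.4404). Pairs with other numbers had a mean of -0.0035. Of the 126 pairs, 32 correlated above 0.1, with no matching count for other numbers. The numbers were not taken to pair mice in the main fit, and whether they do was not tested. The block gave Ntrk3 an adjusted p of 0.0313 and changed no other member's call. Differences near 0 changed sign. Bdnf between defeated and unstressed mice was 0.0010 with DESeq2's size factors, 0.0019 with a filter at 1 CPM, 0.0016 with unstranded counts, 0.0005 in DESeq2, 0.0026 in limma-voom and under the study's criterion, 0.0007 with the replicate block, 0.0317 with CA1 and CA3 scores and 0.0347 with granule cell and oligodendrocyte scores. In the same comparison Ntrk2 was 0.0017 without the 3 mice, Ngfr 0.0068 in limma-voom and under the study's criterion, 0.0379 with quality weights and 0.0363 with choroid plexus and thalamus scores, and Sorcs2 0.0202 with CA1 and CA3 scores and 0.0086 without the 3 mice. Ntrk2 in EE against SH was -0.0108 with quality weights, -0.0021 with the replicate block and -0.0213 without the 3 mice. Without 1 mouse each, Bdnf ran from -0.0278 to 0.0198, Ngfr from -0.0728 to 0.0184 and Sorcs2 from -0.0310 to 0.0002 between defeated and unstressed mice, and Ntrk2 from -0.0097 to 0.0084 in EE against SH. With granule cell and oligodendrocyte scores removed, Ntf3 with Ntrk3 had r = -0.22 in place of 0.34, and 6 in place of 10 pairs passed: Bdnf with Ntrk2 was gained (adjusted p = 0.0282) and 5 were lost (Bdnf with Ntf3, Bdnf with Vgf, Ntf3 with Ntrk3, Ntrk3 with Sorcs2, Ngfr with Sort1). With CA1 and CA3 scores the adjusted p of Fosb was 0.0658 and that of Shc1 0.0876, and without a filter that of Shc1 was 0.0521. Over all genes, EE against SH called 442, and between 83 (granule cell and oligodendrocyte scores) and 741 (quality weights) otherwise. Among RES mice it called 50, and between 0 (CA1 and CA3 scores) and 593 (the study's criterion) otherwise. The cause of these differences was not tested. Ngfr had 10 to 60 counts per mouse, the fewest of the 8 genes. Alternatives with granule cell scores or without the 3 mice were chosen after seeing the data.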
